A study of Sorghum bicolor with 16 samples.

Results

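The m6A peaks described here lie in 3' UTRs of sweet sorghum root transcripts and were found in every condition of the study. They are the peaks of the Roma control list that the authors annotated as 3' UTR and that shared 1 bp or more, on 1 chromosome and strand, with a peak in each of the lists from Roma with salt, M-81E control and M-81E with salt. There were 4142 such peaks, called members below, among 4783 distinct 3' UTR peaks (86.6%) and 5947 distinct peaks (69.6%) of the Roma control list. That list was the shortest, and the shares of the other lists were lower. The 3' UTR peaks paired with a member by longest overlap made up 43.2% of the 3' UTR peaks in Roma salt. The share was 55.1% in M-81E control and 50.4% in M-81E salt. They lay on 3981 host genes. Presence in the 4 lists chose the members, so presence and fold enrichment are given as descriptions and carry no test.

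The study compared roots of Sorghum bicolor M-81E, labelled salt-tolerant, with roots of Roma, labelled salt-sensitive, each as a control and with salt, from plants at the phase of 3 leaves. The sources used here give neither the salt dose nor its duration. Poly(A) RNA was cut into fragments of about 100 nt and sequenced with enrichment by an m6A antibody (IP) or without it (input), in 2 samples per strain, treatment and library kind (8 groups, 16 samples). The replicates are called biological in the labels. The deposited data held 1 peak list per strain and treatment and 1 expression table of 8 libraries in FPKM (fragment counts scaled by transcript length and library size). The sample descriptions tie each FPKM column to an IP sample, while the peak lists give the same short names to what the IP was compared with, so FPKM may stand for IP or for input fragments, and the comparisons of FPKM below carry that limit.

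N6-methyladenosine (m6A) is a modification of adenosine within mRNA. In plants it is added by a methyltransferase complex, removed by demethylases of the ALKBH family and bound by YTH domain proteins, and it has been linked to mRNA stability, 3' end processing and translation. It is found mostly in the last part of transcripts, around the stop codon and in the 3' UTR. Antibody sequencing shows the region that holds the modification, not the single base.

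The 8 libraries held between 325987 and 377097 in summed FPKM, and between 14477 and 16006 genes reached an FPKM of 1. Genes annotated to Casparian strip, nitrate transport or root hair summed to between 2115 and 3860 FPKM over 130 genes, and genes of the photosystems and light harvesting to between 194 and 311 over 101 genes. M-81E control replicate 2 had the lowest summed FPKM and the lowest root marker sum. Replicates of M-81E control differed in log2(FPKM + 1) by a median of 0.54 over all tested genes, against 0.15 in Roma control, 0.18 in Roma salt and 0.27 in M-81E salt. In whole roots, fewer cells of a type and less RNA per cell cannot be told apart.

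The members sat close to the annotated 3' end of their genes. The rule took only peaks annotated 3' UTR, so this closeness follows in large part from the choice. The midpoint of the peak was a median of 209.5 bp from that end, with quartiles at 148.5 and 371.5 bp. It lay within 200 bp in 46.1% of members, within 300 bp in 68.3% and beyond 1000 bp in 323 members (7.80%). The downstream edge of the peak coincided with the last annotated base of the gene in 1081 members (26.1%), and 68 reached past it. The other 641 3' UTR peaks of the Roma control list had nearly the same median midpoint distance, 208.5 bp, and an edge at the gene end in 9.20%. They were shorter, with a median of 149 nt of sequence against 240 nt for the members, and 1.87% of them spanned an intron, against 7.19% of the members. The shorter length and lower enrichment of these peaks belong to the same calls that chose the members, so no test was made. The part of peak length in the shares with an edge at the gene end was not tested.

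**Figure D1:**
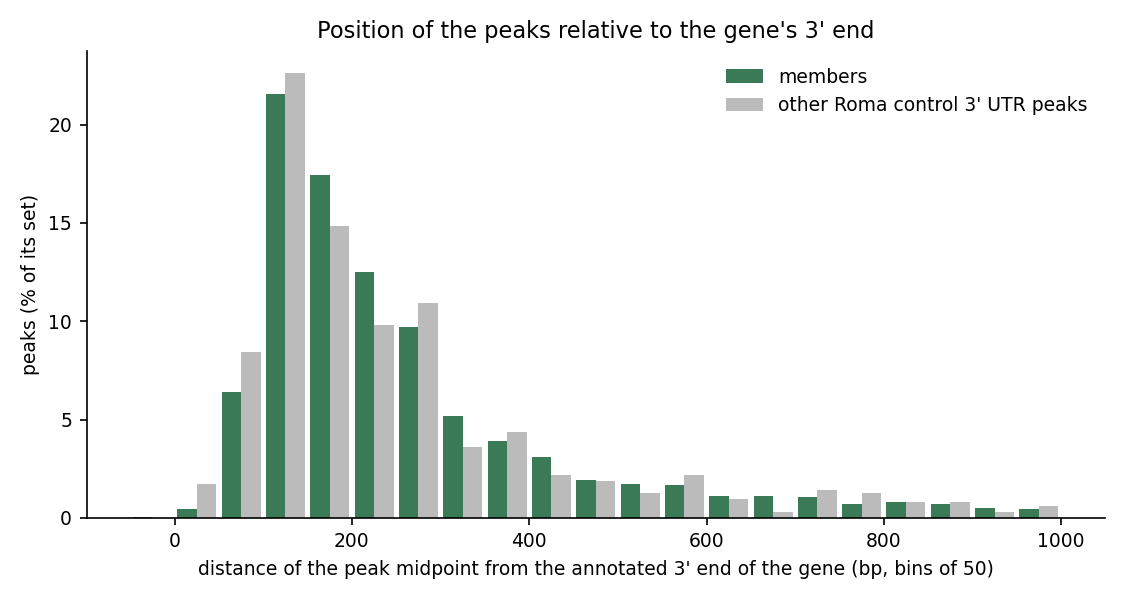
Bars give the percent of member peaks (green) and of the other 3' UTR peaks of the Roma control list (grey) whose midpoint falls in each 50 bp bin of distance to the annotated 3' end of the gene; negative distances lie past the end, and peaks beyond 1000 bp are not drawn. Both sets have their highest bar between 100 and 150 bp, at 21.5% of the members and 22.6% of the others.

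Most member peaks covered the same stretch of the transcript in all 4 lists. The Roma control peak, or the peak it was paired with where that was shorter, was wholly overlapped in 92.1% of members by the Roma salt list, in 88.5% by the M-81E salt list and in 84.1% by the M-81E control list. The median distance between paired midpoints was 29.5 bp in each of the 3 comparisons. The downstream edge was identical in all 4 lists for 1108 members, of which 960 ended at the annotated gene end, whereas the upstream edge was identical for 203 and the whole interval for 62. Of 15426 nonzero edge differences between unspliced paired peaks, 8790 were exact multiples of 30 bp. The partner peak was also annotated 3' UTR in all 3 other lists for 4109 members.

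Most host genes carried 1 member peak (3831 of 3981), 140 carried 2, 9 carried 3 and 1 carried 4. On 119 of the 150 genes with several members, at least 2 of these overlapped each other, so they are not separate sites. The gene with 4, SORBI_3001G212800, had them between chr1:19656728-19657411, with fold enrichments from 20.8 to 107 in Roma control. On SORBI_3003G252500, annotated to the 1,3-beta-D-glucan synthase complex, the list gives the same interval on 2 rows that differ in fold enrichment, and both were counted.

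The overlap rule had few members near its edge. Fewer than 50% of the bases of the shorter peak were shared in 9 members for Roma salt, 31 for M-81E control and 20 for M-81E salt. The members with the smallest overlap, each 1 bp in 1 list, were on SORBI_3009G006200 (transmembrane transporter activity), SORBI_3006G009000 (ubiquitin-protein transferase activity) and SORBI_3009G026101 (glucuronoxylan biosynthetic process). Just outside were peaks of SORBI_3006G129000 (heat acclimation), 29 bp from the nearest M-81E salt peak, of SORBI_3001G024000 (mRNA binding), 30 bp from it, and of SORBI_3001G173800 (maturation of SSU-rRNA), 30 bp from the nearest peak of a missing list. Of the non-members, 339 were present in 3 lists. Among these, 218 lacked M-81E control, 107 lacked M-81E salt and 14 lacked Roma salt.

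Fold enrichment, a value of the authors' own that sets IP against input within each peak, had its highest median and quartiles in Roma with salt. Over the members, the median was 22.2 in Roma control (quartiles 11.2 and 44.6), 39.5 in Roma salt (21.3 and 72.7), 18.3 in M-81E control (9.58 and 35.5) and 22.7 in M-81E salt (12.7 and 39.8). The Roma salt value was the highest of the 4 for 2506 members (60.5%), and the M-81E control value the lowest for 1978 (47.8%). The median of the members stood at the 57.2 percentile of all peaks of the Roma control list, 70.0 of Roma salt, 61.9 of M-81E control and 69.5 of M-81E salt. The lists differed in length, with 5947, 12074, 10215 and 10250 distinct peaks in the same order, and the members make up 69.6% of the Roma control list, so these percentiles are not comparable with each other. There was 1 list per group, so none of these differences has a replicate check.

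**Figure D2:**
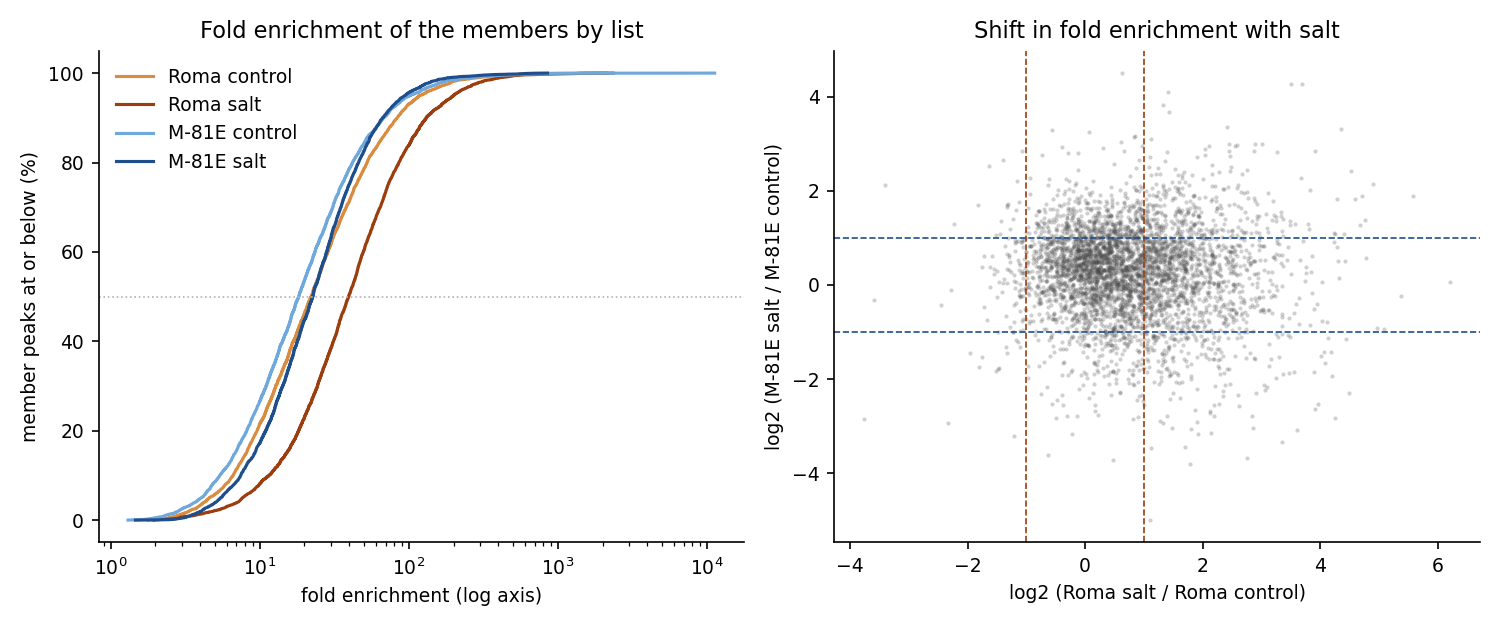
The left panel gives, for each list, the percent of the 4142 members at or below a fold enrichment (log axis); the right panel gives each member as a point, with its log2 ratio of salt over control in Roma (x) and in M-81E (y), and dashed lines at 2 times higher or lower. The Roma salt curve lies to the right, with a median of 39.5, and the cloud is displaced along the Roma axis, with a median ratio of 1.58.

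Between treatments within Roma, the median ratio of salt over control was 1.58 over the members and 1.60 over all 5718 peaks paired between these lists. Fold enrichment was at least 2 times higher with salt in 1588 members (38.3%, against 38.7% of all paired peaks) and at least 2 times lower in 114 (2.75%, against 3.32%). In M-81E the median ratio was 1.26 over the members and 1.08 over all 8280 paired peaks. There, 813 members were at least 2 times higher with salt (19.6%, against 17% of all paired peaks) and 413 at least 2 times lower (9.97%, against 19.5%). The pairing across these lists is the one that chose the members, and nothing is read from these shares beyond their size.

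Between the strains, Roma over M-81E, the ratio in control had a median of 1.28, with 1067 members at least 2 times higher (25.8%, against 22.1% of all paired peaks) and 535 at least 2 times lower (12.9%, against 19.2%). With salt, the median was 1.66, with 1547 members at least 2 times higher (37.3%, against 39.4%) and 88 at least 2 times lower (2.12%, against 3.11%). Set side by side for salt, 334 members (8.06%) were at least 2 times higher in both strains and 16 at least 2 times lower in both, counts that are not read as agreement between the strains. In 207 the value was at least 2 times higher in Roma and lower in M-81E, in 18 the reverse, and 1789 (43.2%) stayed under 2 times in both. Of all peaks paired in Roma, 38.7% were at least 2 times higher with salt and 3.32% lower. The 207 and 18 are therefore not read as a contrast between the strains. No share over all paired peaks stands beside these joint counts.

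Rank order among the members was partly kept. Spearman's rho across the members, a description with no test since peaks of 1 list share its libraries, was between 0.66 and 0.74 for the 6 pairs of lists. Of the 414 members with the highest fold enrichment in a list, 97 were among the highest 414 in every list, and 120 were among the lowest 414 in every list. The range of a member's rank over the 4 lists had a median of 27.5% of all ranks, and 536 members (12.9%) moved over more than 50% of them. For 22 members the highest 414 of 1 list and the lowest 414 of another both held the peak.

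Other features of the 97 constantly high members and the 120 constantly low ones are given as values, with no test. The high ones were longer (a median of 301 nt against 179 nt), nearer to the gene end (179 bp against 311.75 bp) and on genes of lower mean FPKM (19.8 against 68.1). Over all members the medians were 240 nt, 209.5 bp and 21.8 FPKM. In FPKM it was thus the low ones that stood apart from all members. A midpoint beyond 1000 bp was found in 5 of the 97 and 19 of the 120. Genes annotated as ribosomal hosted 1 of the 97 and 9 of the 120 (3.81% of all members), transcription factor genes 0 and 6 (3.33%), RNA binding genes 8 and 3 (5.87%), protein kinase genes 7 and 8 (4.73%), ubiquitin genes 5 and 8 (5.58%) and nucleus genes 28 and 24 (26.7%). Spearman's rho was taken over the 4054 members whose host had a mean FPKM of at least 1. For fold enrichment with peak length it was 0.45 in Roma control and between 0.21 and 0.27 in the other lists. With midpoint distance it was between -0.14 and -0.04.

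The member with the highest geometric mean over the 4 lists lay on SORBI_3002G346250, described as a putative cytochrome P450 superfamily protein, at chr2:71221468-71221760. Its fold enrichment was 633 in Roma control, 881 in Roma salt, 11300 in M-81E control and 854 in M-81E salt. The value of 11300 was the highest of any member in any list. The host gene was barely detected, with FPKM between 0 and 0.715 over the 8 libraries. Another strongly enriched member on a gene with almost no FPKM was that of SORBI_3006G018400, annotated to protein serine/threonine phosphatase activity and response to abscisic acid, at 449, 1350, 88.8 and 74.6 in the same order of lists. Its midpoint lay 3204.5 bp from the annotated gene end, and the gene had a mean FPKM of 0.12. In all, 55 host genes had a mean FPKM under 1.

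Among the other members with the highest geometric means, the peak of SORBI_3001G439600, annotated to the base of the proteasome regulatory particle, the part that recognises and unfolds ubiquitin-tagged proteins, had a fold enrichment of 2120 in Roma control, 1510 in Roma salt, 150 in M-81E control and 349 in M-81E salt. That of SORBI_3001G003100, annotated to protein folding, had 1390, 722, 545 and 321 in the same order. Both were higher in each Roma list than in either M-81E list.

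The peak of SORBI_3001G062600, annotated to xanthine dehydrogenase activity, an enzyme of purine breakdown, had 873, 2350, 512 and 584. Its value of 2350 was the highest of any member in the Roma salt list. The peak of SORBI_3008G049100, annotated to rRNA processing, had 540, 1390, 825 and 271. That of SORBI_3003G117100, annotated to pseudouridine synthase activity, the making of another modified base of RNA, had 402, 451, 853 and 145. The remaining members of these 10 lay on SORBI_3004G344901, described as myosin-6-like, and on SORBI_3001G477900, SORBI_3001G243600 and SORBI_3001G460300, with values between 187 and 1530 over the 4 lists.

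The ratio of the highest to the lowest fold enrichment over the 4 lists had a median of 3.01 over the members, was under 2 in 795 (19.2%) and at least 10 in 226 (5.46%). Of these 226, the Roma salt list held the highest value in 173, and the lowest value was in Roma control for 89, in M-81E control for 87, in M-81E salt for 47 and in Roma salt for 3. Their median in Roma salt was 111, against 15.9 in Roma control. The 795 steady members had medians of 23.3, 26.6, 19.8 and 23.0 in Roma control, Roma salt, M-81E control and M-81E salt.

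Of the 5 members with the largest ratio, the peak of SORBI_3001G474200, annotated to retrograde vesicle transport from Golgi to ER, at chr1:74623906-74624025, had 3.40 in Roma control, 253 in Roma salt, 28.6 in M-81E control and 29.7 in M-81E salt. That of SORBI_3007G120500, annotated to vesicle docking in exocytosis, had 11.4, 217, 29.6 and 4.14. These 2 had their highest value in Roma salt.

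The peaks of SORBI_3003G312700, annotated to mannosidase activity in N-glycan processing, and of SORBI_3002G268700, annotated to hydroxymethylglutaryl-CoA synthase activity of the mevalonate pathway, had their highest value in Roma control. The first had 484 in Roma control, 45.8 in Roma salt, 8.28 in M-81E control and 35.8 in M-81E salt. The second had 195, 74.1, 3.28 and 20.5. SORBI_3006G201400, which has no specific term, had 106, 66.0, 1.85 and 5.40, so that these 3 had their lowest value in M-81E control.

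The steadiest members covered low and high enrichment. The peak of SORBI_3003G126800, annotated as a cysteine-type endopeptidase inhibitor with terms for hyperosmotic response and water deprivation, had 3.74, 3.77, 3.63 and 3.42 in Roma control, Roma salt, M-81E control and M-81E salt. That of SORBI_3001G219900, annotated as a nuclear export signal receptor, had 82.9, 82.1, 90.2 and 81.6. The other 3 were on SORBI_3006G271300, SORBI_3004G319300 (triglyceride lipase activity) and SORBI_3010G268300 (protein serine/threonine phosphatase activity), with values between 5.63 and 17.5. An equal fold enrichment is not an equal rank: the peak of SORBI_3001G219900 ranked 254 among the members in M-81E control and 885.5 in Roma salt.

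The host genes were among the well expressed genes of the root. Their median FPKM in a library was 23.5 and 23.3 in the Roma control replicates, 23.0 and 23.4 in Roma salt, 18.1 and 21.5 in M-81E control, and 17.3 and 19.5 in M-81E salt, each above the median of the genes that passed a mean FPKM of 1, which lay between 5.50 and 7.47. The hosts held from 47.9% to 54.2% of all FPKM in a library, the highest share in M-81E control replicate 2. Of 16280 such genes, 3918 (24.1%) hosted a member. The share was 2.27% between 1 and 2 FPKM, 34.7% between 10 and 20, and 65.3% at 100 or more. The hosts of the other 3' UTR peaks of the Roma control list had a median mean FPKM of 7.21, against 22.1 for the hosts of members. More abundant transcripts give more reads to call a peak from, and the part of this in the shares was not tested.

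**Figure D3:**
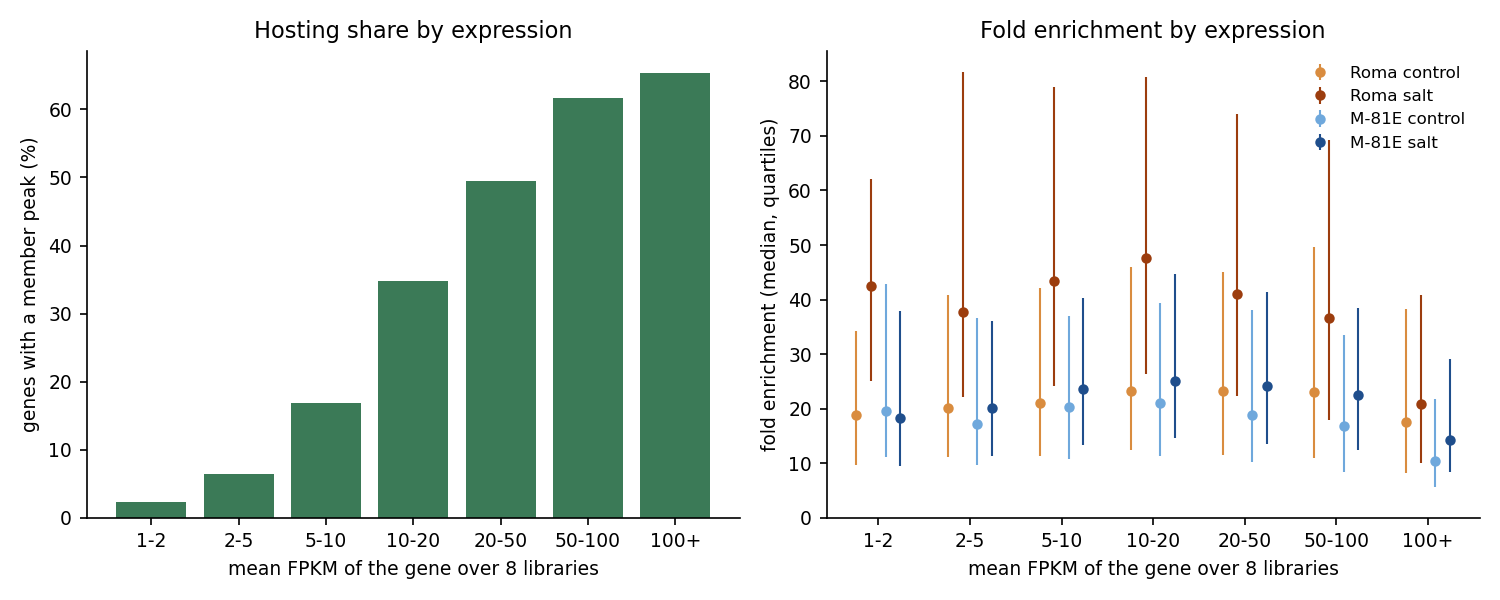
The left panel gives the percent of genes in each bin of mean FPKM that carry a member peak; the right panel gives the median fold enrichment of the members by bin and list, with bars for the quartiles. The share climbs from 2.27% to 65.3%, while the median fold enrichment in the highest bin is the lowest of all bins in each list, from 10.4 in M-81E control to 20.8 in Roma salt.

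Median fold enrichment was lowest in the bin of the most abundant transcripts, but its relation with FPKM over all bins was weak or absent. Over the 4054 members with a host mean FPKM of at least 1, Spearman's rho with FPKM of the same group was 0.002 in Roma control. It was -0.15 in Roma salt, -0.13 in M-81E control and -0.08 in M-81E salt. In Roma control the bin from 1 to 2 FPKM had a median of 18.9, near that of the highest bin. Members on genes of 100 FPKM or more had medians of 17.6 in Roma control, 20.8 in Roma salt, 10.4 in M-81E control and 14.2 in M-81E salt, against 23.1, 36.7, 16.8 and 22.6 between 50 and 100. The hosts with the highest mean FPKM include SORBI_3004G006300, annotated to regulation of cell growth, with a mean FPKM of 1247 and fold enrichments of 40.8, 38.1, 15.1 and 22 in Roma control, Roma salt, M-81E control and M-81E salt. The next was SORBI_3003G393900, annotated to fructose-bisphosphate aldolase, a glycolytic enzyme, with 7.62, 4.96, 2.75 and 6.07. Its FPKM was between 1239 and 1814 in the 4 Roma libraries, but 927 and 12.9 in the M-81E control replicates and 29.9 and 861 in the M-81E salt replicates. The M-81E replicates thus disagreed by more than the treatments.

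SORBI_3003G021500, annotated to calcium:sodium antiporter activity, a kind of exchanger that moves sodium ions across a membrane against calcium, had fold enrichments of 7.84, 5.97, 4.48 and 7.79. Its FPKM was 1298 and 1224 in Roma control, 643 and 750 in Roma salt, 1027 and 342 in M-81E control, and 801 and 852 in M-81E salt. SORBI_3010G052200, annotated to caffeoyl-CoA O-methyltransferase activity of lignin synthesis, had 5.70, 9.07, 6.34 and 4.27, and SORBI_3007G088000 had 28.5, 22.3, 8.69 and 13.2. Of these 5 abundant transcripts, 3 had fold enrichments under 10 in every list.

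The shares of genes hosting a member are given by annotated group, as counts with no test. The groups are defined by words in the GO terms of the deposited table, and 96.0% of the hosts had a term, against 89.5% of the genes past that FPKM filter. Of 66 translation initiation genes, 35 hosted a member (53.0%), as did 152 of 309 ribosomal genes (49.2%), 47 of 104 ion transport genes (45.2%), 101 of 226 splicing genes (44.7%) and 240 of 600 RNA binding genes (40.0%). Of the 26 groups, 5 stood below the 24.1% of all genes: protein kinase (183 of 818, 22.4%), membrane transport (125 of 605, 20.7%), cell wall (122 of 629, 19.4%), redox (57 of 300, 19.0%) and transcription factor genes (125 of 753, 16.6%). Among genes with a peak in any list, 37.9% hosted a member. The shares of these 5 groups were then 38.0%, 37.0%, 36.7%, 37.0% and 26.1% in the same order. The median FPKM was 15.9 for initiation, 17.6 for ribosomal, 18.1 for ion transport, 10.9 for splicing and 10.7 for RNA binding genes. In the groups below 24.1% it was 8.04 for protein kinase, 6.85 for membrane transport, 9.34 for cell wall, 10.6 for redox and 5.86 for transcription factor genes. A group median does not show how the genes of the group spread over levels of FPKM. The part of expression in the shares was not tested.

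**Figure D4:**
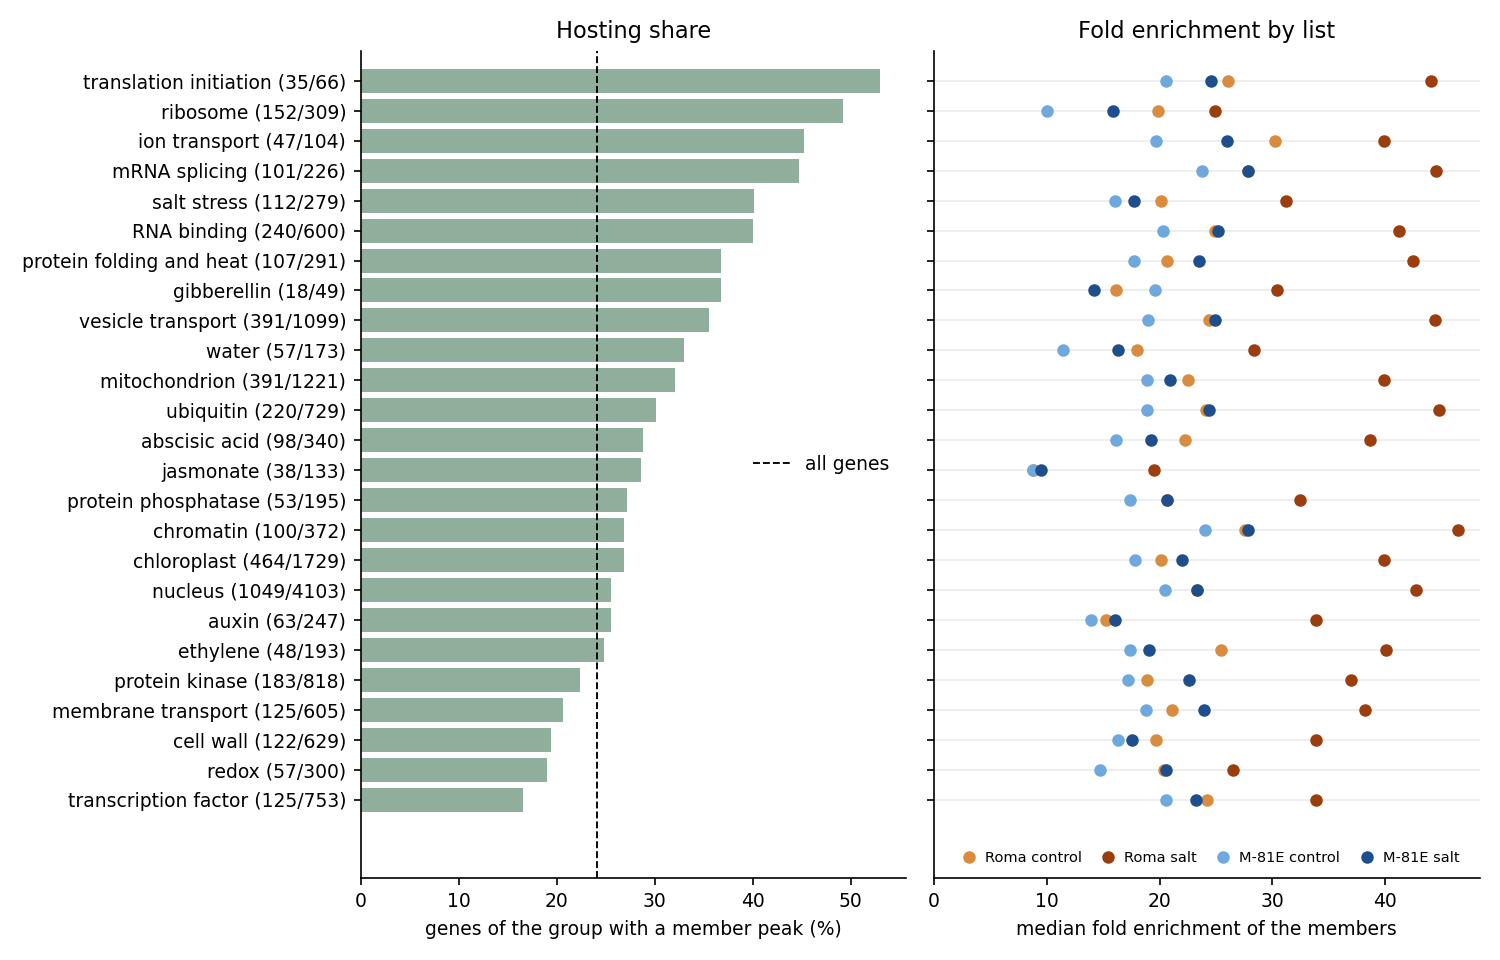
The left panel gives the percent of the genes of each annotated group that carry a member peak, with counts in the labels and a dashed line at the 24.1% of all genes; the right panel gives the median fold enrichment of the group's members in each list. The ribosomal group has the lowest M-81E control median but the jasmonate group, 10.03 against 8.78, and Roma salt has the highest value in every group drawn.

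Ribosomal protein genes, which encode the structural parts of the ribosome, had fold enrichment medians of 19.9 in Roma control, 24.9 in Roma salt, 10.03 in M-81E control and 15.9 in M-81E salt, against 22.2, 39.5, 18.3 and 22.7 over all members. Of the genes annotated to the cytosolic large subunit, 88 of 137 hosted a member (64.2%), and of the small subunit 48 of 82 (58.5%). The most enriched ribosomal member, on SORBI_3007G085000 of the large subunit, had 616, 571, 154 and 316. That of SORBI_3009G115700 of the small subunit had 299, 350, 31.1 and 52.5, so both were higher in each Roma list than in either M-81E list. Near-identical copies are common among ribosomal genes, and the sources used here do not say how reads were shared between them.

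Splicing genes had medians of 27.8, 44.5, 23.8 and 27.8, and chromatin genes 27.6, 46.5, 24.0 and 27.8, both above the medians of all members in every list. Jasmonate genes, of a hormone of wounding and defence, had the lowest medians of the groups in every list, at 8.74, 19.5, 8.78 and 9.52 over 39 members, and members on genes with the term response to wounding had 9.26, 12.4, 9.14 and 8.86. Of the 2 genes annotated to RNA methylation, SORBI_3004G033100, with terms for mRNA methylation and regulation of alternative splicing, hosted a member at chr4:2669668-2669964. It had 387, 403, 172 and 383, which ranked 27, 47, 81.5 and 14 among the members. The FPKM of this gene was between 6.51 and 9.85 over the 8 libraries.

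Of 279 genes with a term for salt stress, 112 hosted a member (40.1%), with median fold enrichments of 20.1, 31.2, 16.1 and 17.7. The most enriched were on SORBI_3004G203200, annotated as a histone acetyltransferase, an enzyme that acetylates histones, with 116 in Roma control, 270 in Roma salt, 160 in M-81E control and 593 in M-81E salt, and on SORBI_3004G240800, annotated as a MAP kinase kinase kinase, with 189, 117, 134 and 70.1. The first was higher with salt than in control in both strains and the second lower. Among ion transport genes, the peak of SORBI_3002G313900, annotated to potassium transport at the vacuolar membrane, had 402, 205, 61.6 and 54.7.

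Among transcription factor genes, the peak of SORBI_3001G157400, with terms for adaxial and abaxial polarity, had 37.3 in Roma control, 193 in Roma salt, 787 in M-81E control and 596 in M-81E salt. Both M-81E values were above both Roma values. Among kinases, the peak of SORBI_3003G029700 had 333, 454, 312 and 257 and ranked between 31 and 36 in each list. At the other end of the terms carried by at least 50 genes, 1 of 74 genes with the term ADP binding hosted a member (1.35%).

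Expression of the host genes was tested with limma on log2(FPKM + 1) over the 16280 genes past the FPKM filter. Calls were made at a Benjamini-Hochberg adjusted p under 0.05. The rule did not use FPKM, but a peak in all 4 lists needs reads of the transcript in each condition. The hosts' shares of calls are therefore not independent of the rule. Of the 3918 hosts tested, 9 were called for salt in M-81E, 2 higher and 7 lower, where 0.491% of all genes were called. For salt in Roma, 6 hosts were called, 3 higher and 3 lower, against 0.473% of all genes. For the interaction, the difference of the salt effects of the strains, 4 hosts were called, against 0.178% of all genes. The hosts' shares were 0.230%, 0.153% and 0.102%. At an unadjusted p under 0.05, 432 hosts passed for salt in M-81E (11.03%, against 12.8% of all genes), 357 for salt in Roma (9.11%, against 11.8%) and 252 for the interaction (6.43%, against 8.73%). These counts depended on single libraries, above all on those of M-81E control, over all genes as among the hosts. A fit without 1 library assumes that the lone library left varies like the other groups, so only medians are given here. The ranges of counts are listed with the other settings below. The hosts' median log2 change with salt in M-81E was -0.15, against -0.05 over all genes. Without M-81E control replicate 1 it was -0.30 (all genes -0.12), and without replicate 2 it was -0.006 (all genes 0.02). In Roma the hosts' median was -0.06, and between -0.07 and -0.04 without any 1 library. The hosts' median for the interaction was 0.09. Without M-81E control replicate 1 it was 0.26 (all genes 0.12), and without replicate 2 it was -0.05 (all genes -0.05).

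**Figure D5:**
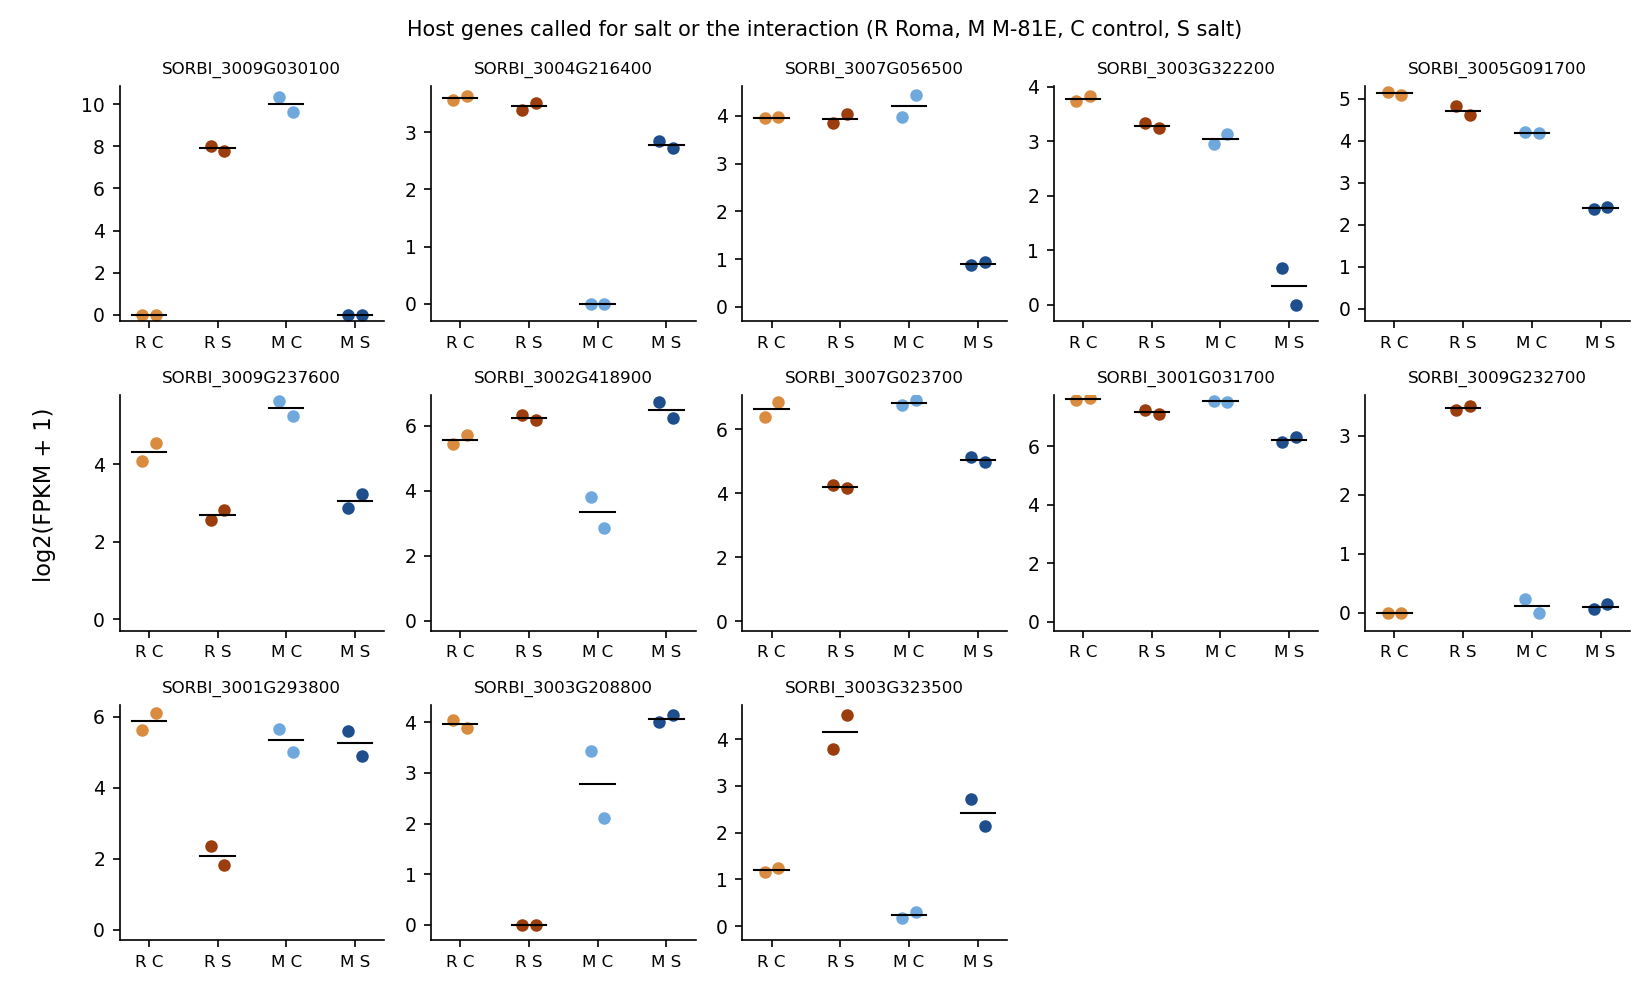
Each panel gives log2(FPKM + 1) of 1 host gene called for salt or the interaction; points are the 2 libraries of Roma control (R C), Roma salt (R S), M-81E control (M C) and M-81E salt (M S), and lines are their means. Replicates mostly lie close together, and 5 of the 13 genes have a library listed at 0.

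SORBI_3007G023700, annotated to isomerase activity, fell with salt in both strains. Its FPKM was 83.6 and 116 in Roma control, 18.2 and 16.8 in Roma salt, 107 and 120 in M-81E control, and 34.2 and 30.4 in M-81E salt, so the treatments did not overlap. The log2 change was -2.43 ± 0.22 (SE) in Roma (limma adjusted p = 0.0141) and -1.78 ± 0.22 in M-81E (limma adjusted p = 0.0424). The Roma call held under 12 of 15 alternatives and the M-81E call under 3. The fold enrichment of its peak was 5.71 in Roma control, 121 in Roma salt, 4.35 in M-81E control and 9.16 in M-81E salt.

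In M-81E, SORBI_3007G056500, annotated to the cullin-RING ubiquitin ligase complex, which tags proteins for breakdown, fell with salt. Its FPKM was 14.8 and 20.8 in M-81E control, 0.827 and 0.906 in M-81E salt, and between 13.3 and 15.5 in the 4 Roma libraries. The M-81E salt libraries lay below all others, with a log2 change of -3.31 ± 0.22 (limma adjusted p = 0.00642), called under 14 of 15 alternatives. SORBI_3005G091700, annotated to the cytosolic large ribosomal subunit, had 17.5 and 17.1 in M-81E control and 4.2 and 4.32 in M-81E salt, a log2 change of -1.80 ± 0.18 (limma adjusted p = 0.0214), called under 7 of 15 alternatives. SORBI_3009G237600, annotated as a transcription factor, had 48.2 and 37.2 in M-81E control and 6.34 and 8.44 in M-81E salt, a log2 change of -2.38 ± 0.27 (limma adjusted p = 0.0326), called under 6 of 15. SORBI_3001G031700, annotated to transmembrane transport, had 188 and 184 against 69.3 and 78.6, a log2 change of -1.32 ± 0.17 (limma adjusted p = 0.0481), and was called under 1 of 15 alternatives. SORBI_3002G418900, with no term, was higher with salt, at 13.1 and 6.22 in control against 105 and 73.8, and was called under 6 of 15.

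In Roma, SORBI_3001G293800, annotated to beta-amylase activity, the enzyme that releases maltose from starch, fell with salt. Its FPKM was 48.2 and 68.4 in Roma control, 4.08 and 2.52 in Roma salt, and between 29.0 and 49.6 in the 4 M-81E libraries. The log2 change was -3.79 ± 0.38 (limma adjusted p = 0.0202), called under 11 of 15 alternatives. Its peak had fold enrichments of 12.9, 14.7, 9.33 and 9.41 in Roma control, Roma salt, M-81E control and M-81E salt. SORBI_3003G323500, annotated to protein-disulfide reductase activity, rose, with 1.23 and 1.35 in Roma control and 12.8 and 21.8 in Roma salt, a log2 change of 2.95 ± 0.32 (limma adjusted p = 0.0262), called under 6 of 15. It hosted 2 overlapping members, both with fold enrichments between 20.1 and 26.0 in the Roma lists.

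The other called hosts were listed at 0 in some library, and such a 0 can be a failed estimate, so no fold is given. SORBI_3009G030100, with no term, was called in all 5 comparisons. Its FPKM was 0 in both Roma control and both M-81E salt libraries, 260 and 218 in Roma salt, and 1301 and 804 in M-81E control. A peak was nevertheless listed on it in every condition, with fold enrichments of 8.09, 12.9, 2.90 and 10.8. SORBI_3004G216400, annotated to GTPase activator activity and salt stress, was at 0 in the M-81E control replicates and 6.14 and 5.62 in M-81E salt, against 9.50 to 11.3 in Roma. SORBI_3003G322200 (RNA binding) was at 0.601 and 0 in M-81E salt and 6.75 and 7.78 in M-81E control. SORBI_3003G208800 (aspartic-type endopeptidase activity) was at 0 in both Roma salt libraries and 15.5 and 13.8 in Roma control. SORBI_3009G232700 (mRNA splicing) was at 9.89 and 10.4 in Roma salt and under 0.2 in the other 6 libraries. A 0 in 1 library beside an FPKM of 5 or more elsewhere was listed for 71 hosts.

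The change in FPKM with salt and the shift in fold enrichment showed almost no relation across 3793 members with 1 member on their gene. Spearman's rho was 0.04 in both Roma and M-81E, as a description. In Roma, the median log2 shift in fold enrichment was 0.25 for the 94 members whose host had a log2 change of -1 or lower, 0.68 for the 3617 between -1 and 1 and 0.50 for the 82 at 1 or higher. In M-81E the medians were 0.55, 0.34 and 0.25 in the same order.

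Between the strains, more hosts were called than for salt. More were called higher in Roma than in M-81E, as were more of all genes. In control, 375 hosts were called (9.57%, against 12.1% of all genes), 264 higher in Roma and 111 higher in M-81E, beside 1359 and 612 of all genes. At an unadjusted p under 0.05 the count was 1234 (31.5%, against 32.2% of all genes). With salt, 227 were called (5.79%, against 8.42% of all genes), 183 higher in Roma and 44 higher in M-81E, beside 977 and 393 of all genes, and 1080 at an unadjusted p under 0.05 (27.6%, against 29.3%). The median of all genes was itself 0.30 higher in Roma in control and 0.29 with salt (log2), and with quantile scaling, which took that median to 0.03 and 0.05, the hosts split into 148 higher and 127 lower in control and 90 higher and 57 lower with salt. The counts depended on single libraries, over all genes as among the hosts. For fits without 1 library, only medians are given here too. The hosts' median log2 difference in control was 0.28. Without Roma control replicate 1 it was 0.28 (all genes 0.30), and without replicate 2 it was 0.29 (all genes 0.30). Without M-81E control replicate 1 it was 0.13 (all genes 0.23), and without replicate 2 it was 0.40 (all genes 0.34). With salt the hosts' median was 0.31. Without M-81E salt replicate 1 it was 0.24 (all genes 0.24), and without replicate 2 it was 0.39 (all genes 0.34).

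Examples from the hosts with the smallest adjusted p between the strains differed in both treatments. SORBI_3001G352400, annotated to regulation of transcription and rhythmic process, had FPKM of 21.8 and 23.2 in Roma control, 20.2 and 22.8 in Roma salt, 161 and 215 in M-81E control, and 161 and 179 in M-81E salt. The strains did not overlap, with a log2 difference, Roma over M-81E, of -2.99 ± 0.21 in control (limma adjusted p = 0.00178) and -2.93 ± 0.21 with salt (limma adjusted p = 0.00202). SORBI_3006G097500, annotated to zeaxanthin epoxidase activity, an early step of abscisic acid synthesis, had 107 and 127 in Roma control, 145 and 157 in Roma salt, 28.9 and 34.0 in M-81E control, and 33.5 and 33.3 in M-81E salt. The log2 difference was 1.86 ± 0.19 in control (limma adjusted p = 0.00479) and 2.14 ± 0.19 with salt (limma adjusted p = 0.00352). Its peak had fold enrichments of 23.0 and 24.6 in the Roma lists and 35.5 and 32.7 in the M-81E lists, so fold enrichment and FPKM stood in opposite order between the strains.

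SORBI_3006G165400, annotated to glutamate dehydrogenase activity and salt stress, hosted the member with the lowest fold enrichment in Roma control, 1.79, and had 12.8, 1.44 and 2.58 in Roma salt, M-81E control and M-81E salt. Its FPKM was 130 and 140 in Roma control, 67.2 and 83.2 in Roma salt, 640 and 565 in M-81E control, and 280 and 245 in M-81E salt. It was lower in Roma in both treatments, with a log2 difference of -2.15 ± 0.20 in control (limma adjusted p = 0.00383). SORBI_3009G048000, annotated to actin filament binding, was higher in Roma, at 21.8 and 19.1 against 6.76 and 6.37 in control, and its peak had 197, 209, 30.3 and 113. In control, 9.57% of hosts and 12.1% of all genes were called, and the median log2 of all genes was 0.30. Of 152 ribosomal hosts, 15 were called higher in Roma and 0 lower, at a median of 0.84. Over all ribosomal genes, 32 of 309 were called, at a median of 0.64. Salt stress hosts were called 16 higher and 2 lower of 112, at a median of 0.50. Over all salt stress genes, 46 of 279 were called, at 0.33. Transcription factor hosts were called 3 higher and 5 lower of 125, at a median of 0.05, and over their whole group 84 of 753, at 0.19. With salt, 5.79% of hosts and 8.42% of all genes were called, and the median log2 of all genes was 0.29. Ribosomal hosts were called 8 higher and 0 lower of 152 (median 0.54), and over their whole group 24 of 309 (0.53). Salt stress hosts were called 7 higher and 1 lower of 112 (0.29), and over their whole group 28 of 279 (0.28). Transcription factor hosts were called 1 higher and 1 lower of 125 (0.12), and over their whole group 62 of 753 (0.03).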

How the data were processed

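Root poly(A) RNA of 16 samples was measured as m6A IP and input libraries. Tools named in the submitters' processing notes, with no role or version, are HISAT2, StringTie, edgeR, ChIPseeker, cutadapt and FastQC. The sources used here name no peak caller, genome build or annotation and do not say whether replicates were pooled. Per the file headers, the authors deposited FPKM per gene for 8 libraries and, per peak and list, a fold enrichment, which is their ratio of IP over input. The deposited score columns hold the log10 of each peak's false discovery rate. The FPKM columns were assigned by the sample descriptions, which tie them to the IP samples, but the list names use the same names for what the IP was compared with, so whether FPKM counts IP or input fragments is not settled. The sources used here give no read totals, so depth was not used and single FPKM values carry no interval.

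Exact duplicate rows were dropped (2 repeated a member). The partner of a member in a list was the peak with the longest overlap. Coordinates and gene assignment are those of the deposited lists. Distances run from the midpoint to the annotated gene end. Gene groups (26) were defined by words in GO terms. Genome sequence was not used here.

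Expression was tested with limma 3.58.1 in R 4.3.3 on log2(FPKM + 1), genes with mean FPKM of at least 1, 1 mean per strain and treatment, all 4 groups sharing 1 estimate of spread, eBayes with trend and Benjamini-Hochberg adjustment. The script was tested on simulated data. Peaks were handled in Python 3.11.15 with pandas 2.3.3 and numpy 2.4.6, and figures drawn with matplotlib 3.10.9. The members, gene lists and named-gene rule were chosen with earlier results of these data known. Named were the 10 members with the highest geometric mean fold enrichment, the 5 with the largest and the 5 with the smallest ratio between lists, the 5 hosts with the highest FPKM, up to 10 called hosts per comparison, 2 members per group and 3 on each side of the overlap limit, with the text giving a selection. Alternatives changed the pseudocount, filter, scaling, block, trend, groups fitted, libraries, overlap rule and partner choice.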

Additional observations from a re-analysis of the deposited data

Results flagged for a closer look

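For 4 host genes the limma fit called the interaction, the difference of the salt effects in listed FPKM between Roma and M-81E. The limma adjusted p was 6.96e-05 for SORBI_3009G030100, 0.0172 for SORBI_3009G232700, 0.0201 for SORBI_3004G216400 and 0.0271 for SORBI_3007G056500. The first was listed with FPKM in Roma salt and M-81E control only, the second in Roma salt, the third in all but M-81E control, and the fourth fell in M-81E by 3.31 on the log2 scale and was not called in Roma. SORBI_3007G056500 is the 1 of the 4 with a nonzero FPKM in every library. In the other genes a library without FPKM can be a failed estimate. A peak was listed on SORBI_3009G030100 in all 4 lists, also where it had no FPKM. SORBI_3009G030100 was called under all 14 alternatives run and the others under 6 or 7 of 13 or 14. None of these alternatives can show whether a missing FPKM is a failed estimate.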

How the results depend on the processing

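The number of members was 4088 with an overlap of at least 50% of the shorter peak, 4154 without the strand, 4142 at a false discovery rate of at most 0.001, 4116 at a fold enrichment of at least 2 in every list and 4109 with the 3' UTR annotation in all lists. Chosen after seeing the data, overlap of exon blocks left 4142 and hosts with a mean FPKM of at least 1 left 4054. Median fold enrichments and the midpoint distance stayed within 1.5 times, except that the edge nearest to the gene end lay at a median of 88.0 bp. Without hosts under a mean FPKM of 1, library medians were 23.9 and 23.8 in Roma control and 23.4 and 23.8 in Roma salt, beyond their replicate spread. Groups above the hosting share of all genes were 21, and 18 against genes with a peak in any list.

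Calls among hosts depended on the fit. With only the 2 groups compared, 1 host was called for salt in M-81E (0.0255%, against 0.0184% of all genes). There were 33 for salt in Roma (0.842%, against 1.33%) and 22 for Roma against M-81E in control (0.562%, against 1.82%). With the replicate block there were 3 for salt in M-81E (0.0766%, against 0.135%) and 4 for salt in Roma (0.102%, against 0.270%). The block left 1 for the interaction (0.0255%, against 0.0614%). Between strains it left 220 in control (5.62%, against 8.20%) and 104 with salt (2.65%, against 4.93%). Replicate numbers did not pair the samples: correlations of replicate differences between groups were from -0.04 to 0.04. A mean FPKM of at least 5 left 1 interaction call (0.0277%, against 0.0515% of all genes). Quantile scaling left 147 between strains with salt (3.75%, against 6.33%). The next counts, from fits without 1 library, moved over all genes as among the hosts. Such a fit assumes that the lone library left varies like the other groups, so nothing is read from these counts. Leaving out 1 library gave 3 to 865 for salt in M-81E, 3 to 47 in Roma, 1 to 257 for the interaction, 18 to 1023 between strains in control and 14 to 1006 with salt. Of 279 values of called salt and interaction genes under alternatives, 172 stayed called, 107 lost the call and 0 reversed. The causes were not tested. The depth behind single FPKM values is not known.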

Other observations

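Some host genes carried further peaks outside the 3' UTR. In the Roma control list, 139 of 3981 hosts (3.49%) also had a peak annotated 5' UTR and 220 (5.53%) an exon peak. The counts were 320 and 427 in Roma salt, 374 and 469 in M-81E control, and 231 and 421 in M-81E salt, in lists of 12074, 10215 and 10250 distinct peaks.

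Among GO terms carried by at least 50 genes, members were hosted by genes under glycolytic process (37 of 66 genes), ER to Golgi vesicle-mediated transport (31 of 57), endocytosis (29 of 55) and response to cadmium ion (95 of 187), beside 24.1% of all genes. The 66 glycolytic genes had a median FPKM of 49.2, and of all genes between 20 and 50 FPKM 49.5% hosted a member, and between 50 and 100 FPKM 61.7%. Members of the glycolytic genes had median fold enrichments of 33.5, 38.2, 18.6 and 26.0 in Roma control, Roma salt, M-81E control and M-81E salt. Those of the endocytosis genes had 26.0, 63.1, 26.4 and 32.4. Each of the 10 chromosomes held members, and their number per 100 genes past a mean FPKM of 1 was lowest on chromosome 5, at 19.0, and highest on chromosome 4, at 27.7.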
